A study of Mus musculus with 3 samples.

Results

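The collagen gene family was examined across cell types of mouse dorsal skin in alopecia areata (AA), an autoimmune loss of hair. Its members were all genes whose symbol is Col, a number, a and a number, with nothing after it. The pattern matched 44 of the 32285 genes in the files. Of these, 34 had 100 or more unique molecular identifiers (UMIs, each a counted transcript molecule) over all libraries, and 10 had fewer.

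Droplet-based single-cell RNA sequencing had been run on 3 libraries, 1 per group, all from 25-week-old female C3H/HeN mice. The Neg library came from vehicle controls, the AA library from the AA model, and the AA+Ab library from the AA model given an antibody that neutralizes CXCL12. The model rests on the transfer of skin-draining lymph node cells from AA donors into recipients of the same strain. Each library mixes the whole dorsal skin of 7 to 8 mice, digested together with 0.7 mg/mL collagenase D, so no group has a replicate. The comparisons ask how collagen transcripts differ between skin with and without AA, and between AA skin with and without the antibody. All values below are given in the order Neg, AA and AA+Ab. Intervals in parentheses are exact 95% intervals that cover counting error only, and no difference between groups has a replicate check.

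Collagens are extracellular proteins whose chains wind into a rope-like helix. The fibrillar types form the tensile fibres of the dermis and are made mainly by fibroblasts, and the fibril-associated types with interrupted helices (FACIT) decorate those fibres. Type IV collagens build the sheet of the basement membrane under the epidermis and around the hair follicle. Type XVII collagen spans the keratinocyte membrane within the hemidesmosome, and type VII collagen forms the anchoring fibrils that tie the basement membrane to the dermis. Inherited loss of either causes skin blistering, and type XVII collagen is known for its part in keeping hair follicle stem cells.

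RefSeq promoter stretches of 4 collagen genes are shown because the results turn on these genes. *Col4a5* and *Col4a6* start 1309 bp apart on opposite strands and varied together between keratinocyte clusters, *Col17a1* held most collagen UMIs, and *Col27a1* was concentrated in gamma-delta T cells. RefSeq promoter windows (GRCm38.p6, the mm10 assembly) were found for 35 of the 44 members. By the GENCODE M21 annotation the genes are ENSMUSG00000025064 (*Col17a1*, chr19:47646344-47692094), ENSMUSG00000031274 (*Col4a5*, chrX:141475385-141689234), ENSMUSG00000031273 (*Col4a6*, chrX:141165403-141474076) and ENSMUSG00000045672 (*Col27a1*, chr4:63214004-63334991), all protein-coding. Each line runs 5′ to 3′ on the gene's own strand and leaves out annotated exons. Capitals mark 3 short motifs, searched on both strands. The TATA box was read as TATAAA. The CCAAT box was read as the letters of its name. The GC box was read as GGGCGG, and no motif overlapped another in these lines. The *Col17a1* stretch lies at chr19:47692095-47692292 on the minus strand, the *Col4a5* stretch at chrX:141475169-141475384 on the plus strand, the *Col4a6* stretch at chrX:141474077-141474326 on the minus strand and the *Col27a1* stretch at chr4:63215162-63215411 on the plus strand. The *Col27a1* stretch precedes its RefSeq start and lies inside the longer GENCODE gene, outside its exons.
Col17a1: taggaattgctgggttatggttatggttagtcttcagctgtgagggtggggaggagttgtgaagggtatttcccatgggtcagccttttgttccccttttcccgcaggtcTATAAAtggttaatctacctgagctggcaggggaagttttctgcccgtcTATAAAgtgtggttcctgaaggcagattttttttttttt
Col4a5: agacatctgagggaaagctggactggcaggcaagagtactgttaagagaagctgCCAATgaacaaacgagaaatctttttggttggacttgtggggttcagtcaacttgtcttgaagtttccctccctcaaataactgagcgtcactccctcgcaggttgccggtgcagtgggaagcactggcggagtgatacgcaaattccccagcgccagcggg
Col4a6: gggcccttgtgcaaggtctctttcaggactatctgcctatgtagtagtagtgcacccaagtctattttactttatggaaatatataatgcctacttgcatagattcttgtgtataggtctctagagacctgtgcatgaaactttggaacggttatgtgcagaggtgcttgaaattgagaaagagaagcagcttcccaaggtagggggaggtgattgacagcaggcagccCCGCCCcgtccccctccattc
Col27a1: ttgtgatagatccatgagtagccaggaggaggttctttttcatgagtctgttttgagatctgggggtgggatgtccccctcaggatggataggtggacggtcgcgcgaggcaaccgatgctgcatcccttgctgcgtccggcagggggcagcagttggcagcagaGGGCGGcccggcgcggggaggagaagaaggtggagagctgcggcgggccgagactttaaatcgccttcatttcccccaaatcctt
The *Col17a1* stretch held 2 TATA boxes, *Col4a5* a CCAAT box, and *Col4a6* and *Col27a1* a GC box each. Over the full 250 bases before the start, a TATA box was present in 5 of 38 collagen windows (13.2%), against 12.4% of all 32851 windows. A CCAAT box was present in 13 collagen windows (34.2%), against 33.8% of all. A GC box was present in 22 collagen windows (57.9%), against 32.7% of all. The letters match, and nothing here measured whether a factor binds them.

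After filtering, 6582, 10433 and 9832 cells remained, with 119193310, 135609481 and 139663314 UMIs. Between 14 and 23 cell barcodes were shared by each pair of libraries. Fibroblasts were cells with 2 or more UMIs in at least 3 of *Col1a1*, *Col1a2*, *Col3a1*, *Dcn* and *Lum*, a gate that held 54, 143 and 56 cells. These were 0.820% (0.617 to 1.07), 1.37% (1.16 to 1.61) and 0.570% (0.431 to 0.739) of cells. All 7 genes of the dermal fibroblast list were detected in the gate of every library. The list includes the genes that define the gate, whose detection follows from it, and only *Pdgfra* and *Sparc* lie outside the gate's rule. The endothelial gene *Cdh5* was at 0, and *Pecam1*, another endothelial gene, had 1, 0 and 1 UMIs. The pericyte and smooth muscle list summed to 143, 624 and 262 CPM in the gate, highest in AA. The gated cells were not of one kind. By clusters formed without collagen genes, 44, 109 and 30 lay in the dermal fibroblasts-like cluster and 6, 33 and 26 in the dermal papilla-like cluster. A further 4, 1 and 0 lay in keratinocyte clusters, and the 4 Neg cells carried 27.2% of the gate's UMIs. Fibroblast values of most collagens are therefore also given for the fibroblast cluster alone, and those of single other genes for the gate only. Keratinocytes were 17 clusters with 5528, 9219 and 8502 cells, of which 8 met the naming rule and 9 stayed unnamed.

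*Col17a1* was the most abundant collagen in this skin, and it held 51.7%, 53.6% and 53.8% of all collagen UMIs. Scaled to exon length, its all-cell level was 103, 131 and 93.6 CPM (counts per 1000000 UMIs) per exon kb. Another transmembrane collagen, *Col23a1* (chr11:51289920-51583918), followed with 24.8, 21 and 17.7. Next came the basement membrane chains *Col4a6* with 11.5, 14.0 and 10.4 and *Col4a5* with 11.4, 14.5 and 11.3. The fibrillar *Col3a1* reached 1.94, 3.57 and 1.37. Counting of transcript ends does not scale with length, so this order is a rough one.

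The family split by cell source. With libraries pooled, 9 members had over 50% of their UMIs in gated fibroblasts, 21 in keratinocyte clusters and 4 in neither. The fibroblast members were *Col1a1*, *Col1a2* and *Col3a1*, which the gate itself used, with *Col5a3*, *Col6a2*, *Col6a3*, *Col6a6*, *Col11a1* and *Col15a1*. The keratinocyte members included all 6 type IV chains, *Col7a1*, *Col12a1*, *Col16a1*, *Col17a1*, *Col18a1* and *Col23a1*. For *Col1a1*, *Col1a2* and *Col3a1* a high share in the gate follows from how it was drawn. Of *Col6a3*, which the gate did not use, gated fibroblasts held 85.1%, 81.4% and 79.6% of the UMIs, while they made up at most 1.37% of the cells of a library. The map of collagens by cluster shows the type I and III genes bright in the fibroblast column and the transmembrane and type IV genes bright across keratinocytes.

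**Figure D1:**
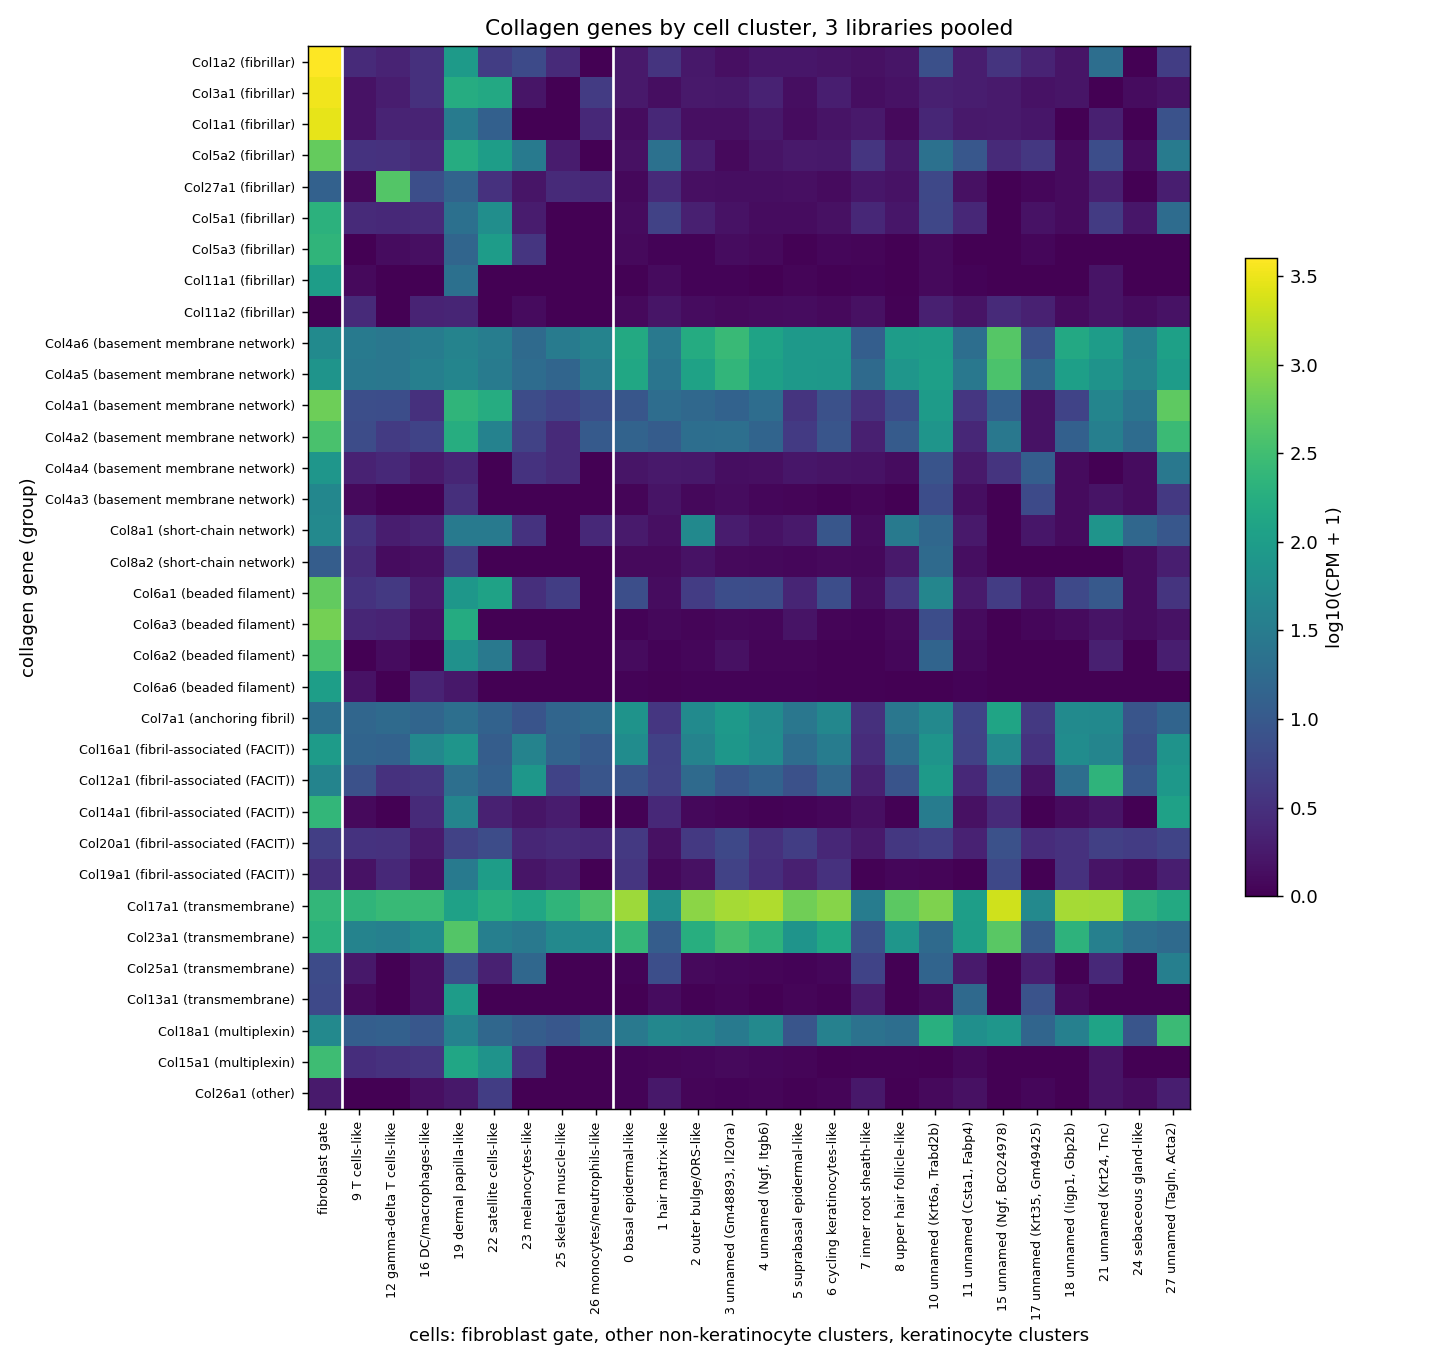
Level of the members with 100 or more UMIs over all cells, as log10(CPM + 1) of the 3 libraries pooled (color), in the fibroblast gate (left of the first white line), in other clusters without their gated cells, and in the 17 keratinocyte clusters (right of the second line). Col1a1, Col1a2 and Col3a1, which define the fibroblast gate, peak in it, Col17a1 spans most keratinocyte clusters, and Col27a1 peaks in the gamma-delta T cells-like cluster.

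Among gated cells, RNA for type I collagen was at a higher level in AA than in Neg, and the type III difference was smaller. *Col1a1*, *Col1a2* and *Col3a1* define the gate, so their levels there describe the selected cells and support no comparison. *Col1a1* encodes a chain of type I collagen, and its level in the gate was 1546 CPM (1459.7 to 1636) in Neg, 3900.3 (3785 to 4018) in AA and 2946 (2809 to 3088) in AA+Ab. The AA over Neg ratio was 2.52 (2.37 to 2.69), and the AA+Ab library lay between the other two without overlap of the intervals. *Col1a2*, its partner chain, was at 2298 CPM in Neg, 5515 in AA and 3046 in AA+Ab, an AA over Neg ratio of 2.40 (2.28 to 2.53). *Col3a1*, the type III chain, was at 2785 CPM in Neg, 4004 in AA and 2829 in AA+Ab, a ratio of 1.44 (1.37 to 1.51). Its Neg and AA+Ab levels were within counting error of each other, with a ratio of 1.02 (0.952 to 1.08).

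The size of the type I difference depended on which gated cells were counted. In the fibroblast cluster alone, *Col1a1* was at 2188 CPM in Neg, 4224 in AA and 3709.6 in AA+Ab and *Col1a2* at 3345 CPM in Neg, 6301 in AA and 4467 in AA+Ab. The AA over Neg ratios were 1.93 (1.80 to 2.07) and 1.88 (1.78 to 1.99), and that of *Col3a1* was 1.17 (1.11 to 1.23). The level of the middle cell in that cluster was closer between AA and Neg, and for *Col3a1* it was lower in AA. Its median over cells was 1613, 1686 and 1279.8 CPM for *Col1a1*, 2796, 3529 and 2214 for *Col1a2* and 3469, 3269 and 1788 for *Col3a1*. In AA+Ab the *Col1a1* sum rested to a large part on 1 cell, and the top cell held 11.2%, 11.2% and 43.8% of the *Col1a1* UMIs of that cluster. After thinning each gated cell to 2000 UMIs, the AA over Neg ratio was 1.96 for *Col1a1*, 1.65 for *Col1a2* and 1.01 for *Col3a1*. A gate that uses no collagen gene (144, 195 and 152 cells) gave 5.36, 5.17 and 3.09.

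The type V chains, which the gate did not use, had higher levels in AA than in Neg in the gate, by less in the fibroblast cluster. Type V collagen sets fibril diameter, and its chain *Col5a2* was at 429 CPM in Neg, 692 in AA and 510.3 in AA+Ab in the gate, with an AA over Neg ratio of 1.61 (1.42 to 1.84) that became 1.25 (1.09 to 1.44) in the fibroblast cluster. *Col5a1* was at 184, 251 and 146 CPM in the gate and 269, 287 and 211 in the fibroblast cluster. *Col5a3* was at 214 CPM in Neg, 291 in AA and 105 in AA+Ab, and its AA+Ab over AA ratio was 0.363 (0.272 to 0.478). In the fibroblast cluster *Col5a3* was also lowest in AA+Ab, at 317, 372 and 128 CPM. The AA+Ab level of *Col5a3* lay under the intervals of both other libraries in either set of cells.

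*Col11a1*, a chain of type XI collagen better known from cartilage, was found, among gated cells, nearly only in those of the dermal papilla-like cluster. The gate held 45.2%, 78.0% and 86.2% of its UMIs. Outside the gate it had 6, 11 and 12 UMIs in the papilla-like cluster and 3, 17 and 1 in the hair matrix-like cluster, where the 17 AA UMIs lay in 1 cell. In the whole gate it was at 18.0 CPM in Neg, 118 in AA and 170.1 in AA+Ab, from 14, 131 and 100 UMIs. In the papilla cells it was at 204, 549.6 and 314 CPM, while the fibroblast cluster held 0 UMIs in Neg and in AA (at most 7.36 and 4.29 CPM) and 6 in AA+Ab, all from 1 cell. The gate's AA over Neg ratio of 6.53 (3.76 to 12.3) moved together with the share of gated cells in the papilla cluster, which was 11.1%, 23.1% and 46.4%. Within the papilla cells the ratio was 2.69 (1.52 to 5.19), from 6 Neg cells of which 1 held 76.9% of the UMIs. *Acta2*, a smooth muscle actin, was at 62.8, 1590.1 and 147 CPM in the same papilla cells, highest in AA as *Col11a1* was, and its part in the *Col11a1* level was not tested.

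Beaded filament collagens (type VI), which form a fine network around cells, differed little between AA and Neg in their 3 main chains. *Col6a3* was at 598 CPM in Neg, 811 in AA and 619 in AA+Ab, *Col6a1* at 463, 651 and 432 and *Col6a2* at 362, 428 and 270.4. In the gate their AA over Neg ratios were 1.36, 1.41 and 1.18. In the fibroblast cluster these became 0.944, 1.05 and 0.837, so no difference of 1.5-fold was present in either set. The AA+Ab over Neg ratios in the fibroblast cluster were 0.590 (0.486 to 0.714) for *Col6a3* and 0.552 (0.426 to 0.709) for *Col6a2*. *Col6a6* was at 128 CPM in Neg, 115 in AA and 47.6 in AA+Ab in the gate and 181, 149 and 93.4 in the fibroblast cluster, lowest in AA+Ab in both. The rare chain *Col6a5* had 7, 26 and 6 UMIs in the gate, an AA over Neg ratio of 2.59 (1.10 to 7.08) that became 0.502 after thinning.

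Of the network and fibril-associated collagens of fibroblasts, *Col4a1* was at 649 CPM in Neg, 721 in AA and 473 in AA+Ab and *Col4a2* at 325, 416 and 316. The fibroblast cluster had 903, 803 and 547 CPM of *Col4a1* and 445, 423 and 280.3 of *Col4a2*, so Neg was highest there. The rarer type IV chain *Col4a4* was at 104, 84.6 and 30.6 CPM, with an AA+Ab over Neg ratio of 0.293 (0.166 to 0.493) and 0.395 (0.223 to 0.666) in the fibroblast cluster. *Col4a3* was at 49.0, 53.1 and 23.8 CPM in the gate and 69.8, 68.6 and 48.4 in the fibroblast cluster. Both *Col4a3* and *Col4a4* were thus lowest in AA+Ab. *Col8a1*, a short-chain network collagen, had 43, 73 and 2 UMIs in the gate, of which 42, 73 and 2 were in the fibroblast cluster, and an AA+Ab over AA ratio of 0.0518 (0.00616 to 0.194). A single cell held 46.5% and 46.6% of these UMIs in Neg and AA, so those levels rest on few cells. *Col12a1*, a FACIT collagen, had 12, 71 and 18 UMIs and an AA over Neg ratio of 4.13 (2.22 to 8.37) in the gate. In the fibroblast cluster it had 10, 12 and 0 UMIs and a ratio of 0.699 (0.277 to 1.81), and 59 of the 71 AA UMIs in the gate came from papilla cells, where *Acta2* was also highest in AA. *Col14a1*, another FACIT collagen, was at 209, 225 and 313 CPM in the gate and 251, 249.9 and 349.5 in the fibroblast cluster, highest in AA+Ab in both. *Col16a1* was at 61.8, 104 and 109 CPM in the gate and 55.8, 86.0 and 86.5 in the fibroblast cluster, and its gate AA+Ab over Neg ratio of 1.76 (1.19 to 2.62) became 0.756 after thinning. The multiplexin *Col15a1*, found in basement membranes of vessels and muscle, was at 256, 310.3 and 364 CPM in the gate and 335, 284 and 176 in the fibroblast cluster.

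*Col23a1* was higher in AA+Ab than in both other libraries in the gate, without overlap of the intervals. It was at 115 CPM (92.1 to 141) in Neg, 153 (131 to 178) in AA and 395 (345 to 449) in AA+Ab, and its AA+Ab over Neg ratio was 3.44 (2.68 to 4.45). The papilla cells held most of it, at 691, 541 and 692 CPM, against 51.9, 47.7 and 86.5 in the fibroblast cluster. Within these gated papilla cells (6, 33 and 26) the AA+Ab over Neg ratio was 1.00 (0.721 to 1.42). *Krt14* was at 8039, 1712 and 2328 CPM in them, highest in Neg. In the papilla-like cluster outside the gate (41, 87 and 61 cells), *Col23a1* was at 136, 652 and 663 CPM. The AA+Ab over Neg ratio there was 4.86 (3.80 to 6.29). What part the mix of cells had in the gate's ratio was not tested. *Corin*, a dermal papilla gene, was at 83.7, 137 and 663 CPM in the gate, and the papilla list summed to 189, 315 and 1670.3 CPM.

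Keratinocyte RNA was present among gated cells. *Krt14*, a basal keratin, was at 3408, 1540.0 and 2148 CPM in the gate and the suprabasal list summed to 4144, 239 and 221 CPM, highest in Neg. *Col17a1* was at 334 CPM in Neg, 221 in AA and 167 in AA+Ab there, which lies within or below its range over the immune clusters of each library, and it is read as background.

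In counts, 28 members had 30 or more UMIs in the gate. Between AA and Neg, 7 were at least 1.5-fold higher in AA and 1 lower, where 15.5% and 15.1% of all 9017 genes read in these cells were higher and lower. The 7 were *Col1a1* and *Col1a2*, which the gate used, *Col5a2*, *Col11a1*, *Col12a1*, *Col16a1* and *Col6a5*, which reached 30 UMIs only through AA. The 1 lower was *Col17a1*, read as background above. The members' median ratio was 1.25, against 1.03 over all genes, and neither the count nor the median is support for a change of the family. Between AA+Ab and AA, 2 were higher and 13 lower (19.0% and 20.3% of all genes), with a median of 0.722 against 0.999. Between AA+Ab and Neg, 5 were higher and 8 lower (16.5% and 18.0% of all genes), with a median of 0.954 against 1.01. In the fibroblast cluster alone, 25 members could be read and the AA over Neg comparison gave 4 higher (*Col1a1*, *Col1a2*, *Col6a5* and *Col16a1*) and 0 lower, beside 11.1% and 11.6% of all genes, with a median of 0.951 beside 0.991. Of these 4, *Col1a1* and *Col1a2* define the gate and *Col6a5* passed only through AA (6, 24 and 1 UMIs). There the AA+Ab library had 2 members higher and 9 lower than AA (14.8% and 24.4% of all genes), and 4 higher and 12 lower than Neg (15.1% and 23.5% of all genes). The comparisons share libraries and are not independent, and the 30 AA+Ab cells of that cluster limit them. In the gate, 16 members were below 30 UMIs, of which 5 (*Col2a1*, *Col6a4*, *Col9a3*, *Col10a1* and *Col11a2*) had 0.

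**Figure D2:**
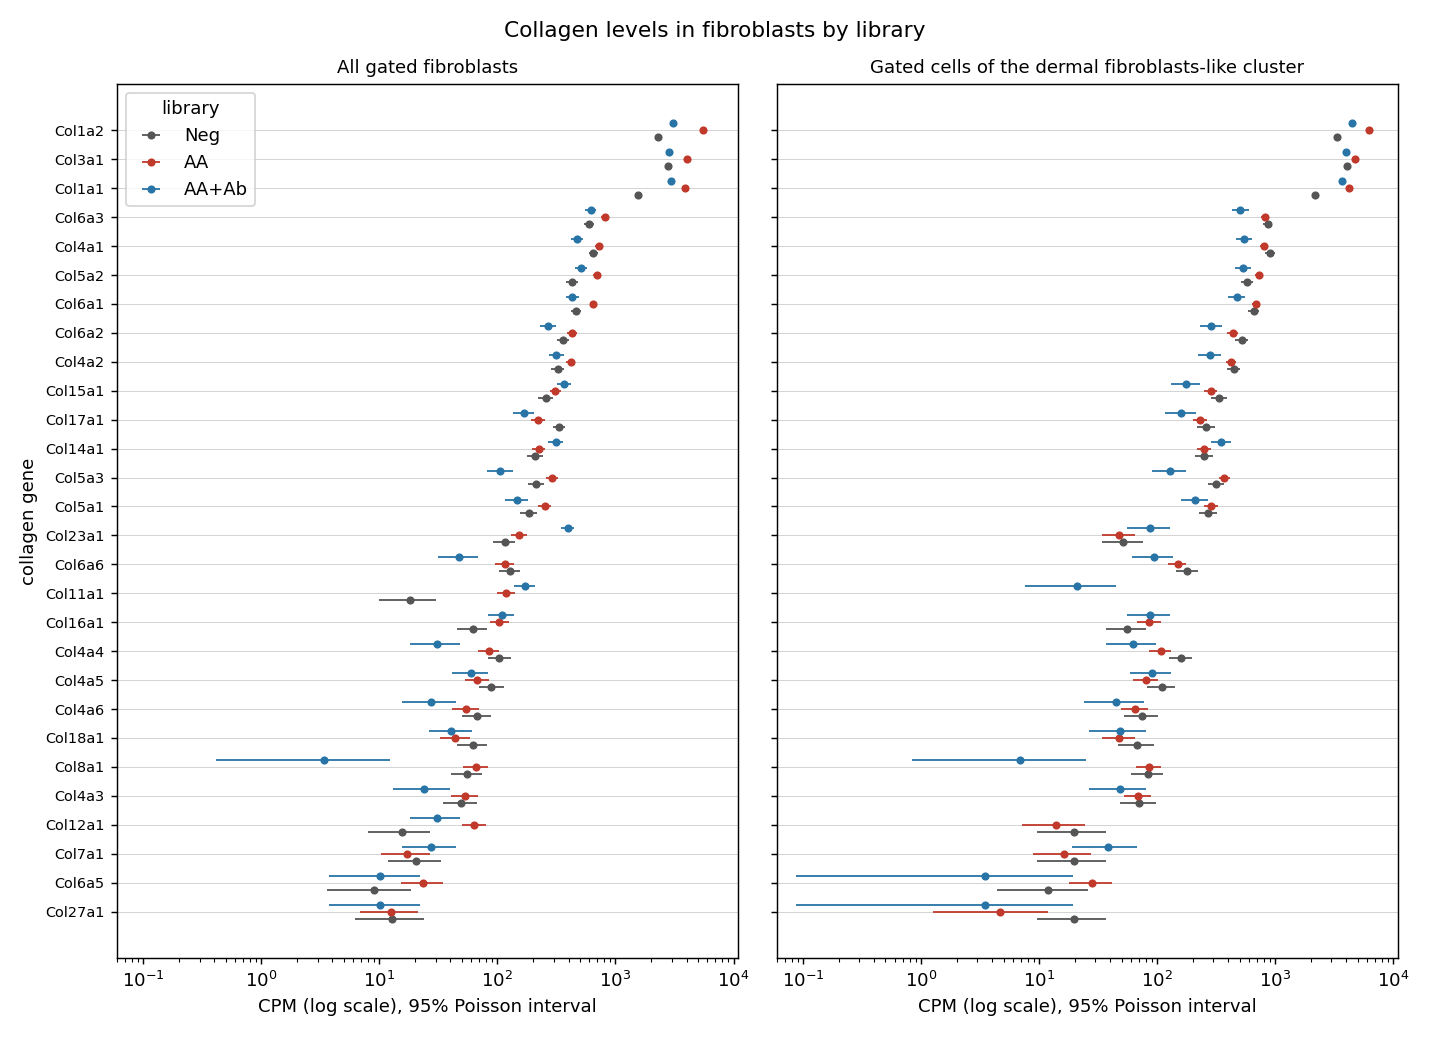
Level of each collagen with 30 or more UMIs in the fibroblast gate, by library, in all gated cells (left) and in gated cells of the dermal fibroblasts-like cluster (right), in CPM on a log axis, where points are library values, bars are exact 95% Poisson intervals and a level of 0 has no point. Col1a1 and Col1a2 lie highest in AA in both panels, while Col11a1 and most of the AA+Ab excess of Col23a1 are in the left panel.

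In keratinocytes, *Col17a1* was higher in AA over all cells of the class, and by less within clusters. Over all keratinocyte clusters it was at 648 CPM (643 to 653) in Neg, 829 (824 to 834) in AA and 590.4 (586 to 595) in AA+Ab, an AA over Neg ratio of 1.28 (1.27 to 1.29). Within clusters the median ratio was 1.09, and it was above 1 in 12 of 17. In the basal epidermal keratinocytes-like cluster it was at 1204, 1235 and 1098 CPM. Unnamed cluster 4, with Itgb6 among its leading genes, had 1385, 1557 and 1379.5 CPM, and this cluster was 8.20%, 14.8% and 4.88% of cells. Levels were lower than in the basal cluster in the suprabasal, hair matrix-like and inner root sheath-like clusters. The suprabasal epidermal keratinocytes-like cluster had 718, 679 and 578 CPM, the hair matrix-like cluster 62.0, 70.6 and 50.2 and the inner root sheath-like cluster 28.1, 40.2 and 29. The upper hair follicle-like cluster had 572, 433 and 438 CPM, an AA over Neg ratio of 0.757 (0.714 to 0.803). The T cells-like cluster, which should lack the gene, had 251, 222 and 222 CPM, so levels near this in any cluster cannot be told from free RNA. Other immune clusters reached 372 CPM in Neg (gamma-delta T cells-like). The monocytes and neutrophils-like cluster reached 943 in AA, from 75 UMIs in 15 cells, and 338 in AA+Ab. The suprabasal and upper hair follicle-like levels in AA are under that AA value. Clusters 1 (hair matrix-like), 7 (inner root sheath-like), 11 and 17 were under the T cells-like level and are among those with an AA over Neg ratio above 1. Cluster 18, also among them, had 4 Neg cells.

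Within clusters the antibody library was mostly lower than AA for *Col17a1*. The AA+Ab over AA ratio was below 1 in 14 of 17 clusters with a median of 0.832, and AA+Ab over Neg was below 1 in 13 with a median of 0.911. The 17 include the clusters under the T cells-like level named above. In the basal cluster the AA+Ab over AA ratio was 0.889 (0.872 to 0.906).

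The other anchoring collagen, *Col7a1*, was close between libraries in the basal and cluster 3 keratinocytes. Its level was 75.7, 67.1 and 67.7 CPM in the basal cluster and 83.5, 83.9 and 90.5 in unnamed cluster 3, led by Gm48893 and Il20ra. In the suprabasal cluster it was 34.4 CPM in Neg, 18.0 in AA and 25.8 in AA+Ab, with an AA over Neg ratio of 0.522 (0.449 to 0.606). The Neg interval there lies above that of AA. The T cells-like cluster had 12.4, 18.0 and 10.7 CPM of *Col7a1* and 15.8, 11.9 and 14.6 CPM of *Col16a1*, so the AA suprabasal levels of both are at that background. Some other immune levels ran higher. *Col7a1* was at 27, 9.92 and 8.32 CPM in the gamma-delta T cells-like cluster, highest in Neg. In the dendritic cells and macrophages-like cluster *Col16a1* was at 35.9, 28.7 and 72.1 CPM, above the T cells-like level in every library and highest in AA+Ab. *Col16a1*, a FACIT collagen, was at 28.1 CPM in Neg, 12.9 in AA and 14.7 in AA+Ab in the suprabasal cluster (AA over Neg ratio 0.460 (0.387 to 0.547)) and 60.5, 57.1 and 50.9 in the basal cluster. Its AA over Neg ratio was below 1 in 13 of 15 clusters and its AA+Ab over Neg ratio in 14 of 15. The 15 include clusters 1, 7 and 11, under the T cells-like level in every library, and cluster 18, with 4 Neg cells.

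*Col23a1*, a transmembrane collagen also shed from the cell surface, was lower in both AA libraries than in Neg over all keratinocytes. Over keratinocytes it was at 148 CPM (146 to 150.2) in Neg, 122 (120.5 to 124) in AA and 103 (101 to 105) in AA+Ab. In the basal cluster it was at 327 CPM in Neg, 215 in AA and 226 in AA+Ab, with an AA over Neg ratio of 0.659 (0.631 to 0.688) and an AA+Ab over Neg ratio of 0.691 (0.662 to 0.721). In the suprabasal cluster it was at 124 CPM in Neg, 40.1 in AA and 56.1 in AA+Ab, with ratios of 0.322 (0.294 to 0.353) and 0.451 (0.416 to 0.489). Neg was highest in both clusters, and its interval did not overlap those of the other libraries. Unnamed cluster 3 had 400.1, 291 and 309 CPM and unnamed cluster 4 had 272, 195 and 180.1. The ratio of either AA library to Neg was below 1 in 12 of 17 clusters, with medians of 0.860 and 0.691. The 17 include clusters 1, 7, 10, 17 and 24, which were under the T cells-like level given below in every library. Cluster 27, with 28, 1 and 4 UMIs, reached 30 only through Neg, and cluster 18 had 4 Neg cells. In the outer bulge and outer root sheath-like cluster AA was not below Neg, at 211, 215 and 141 CPM. In immune clusters, which should lack the gene, *Col23a1* was at 24.9, 43.8 and 42.2 CPM (T cells-like), 69.4, 11.6 and 10.8 (gamma-delta T cells-like), 102, 34.8 and 46.2 (dendritic cells and macrophages-like) and 50.3, 37.7 and 53.5 (monocytes and neutrophils-like). The basal levels are above all of these and the AA suprabasal level is among them. In the gamma-delta T cells-like and the dendritic cells and macrophages-like clusters this background was lower in AA than in Neg, as the suprabasal level was, and its part in the suprabasal ratio was not tested.

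**Figure D3:**
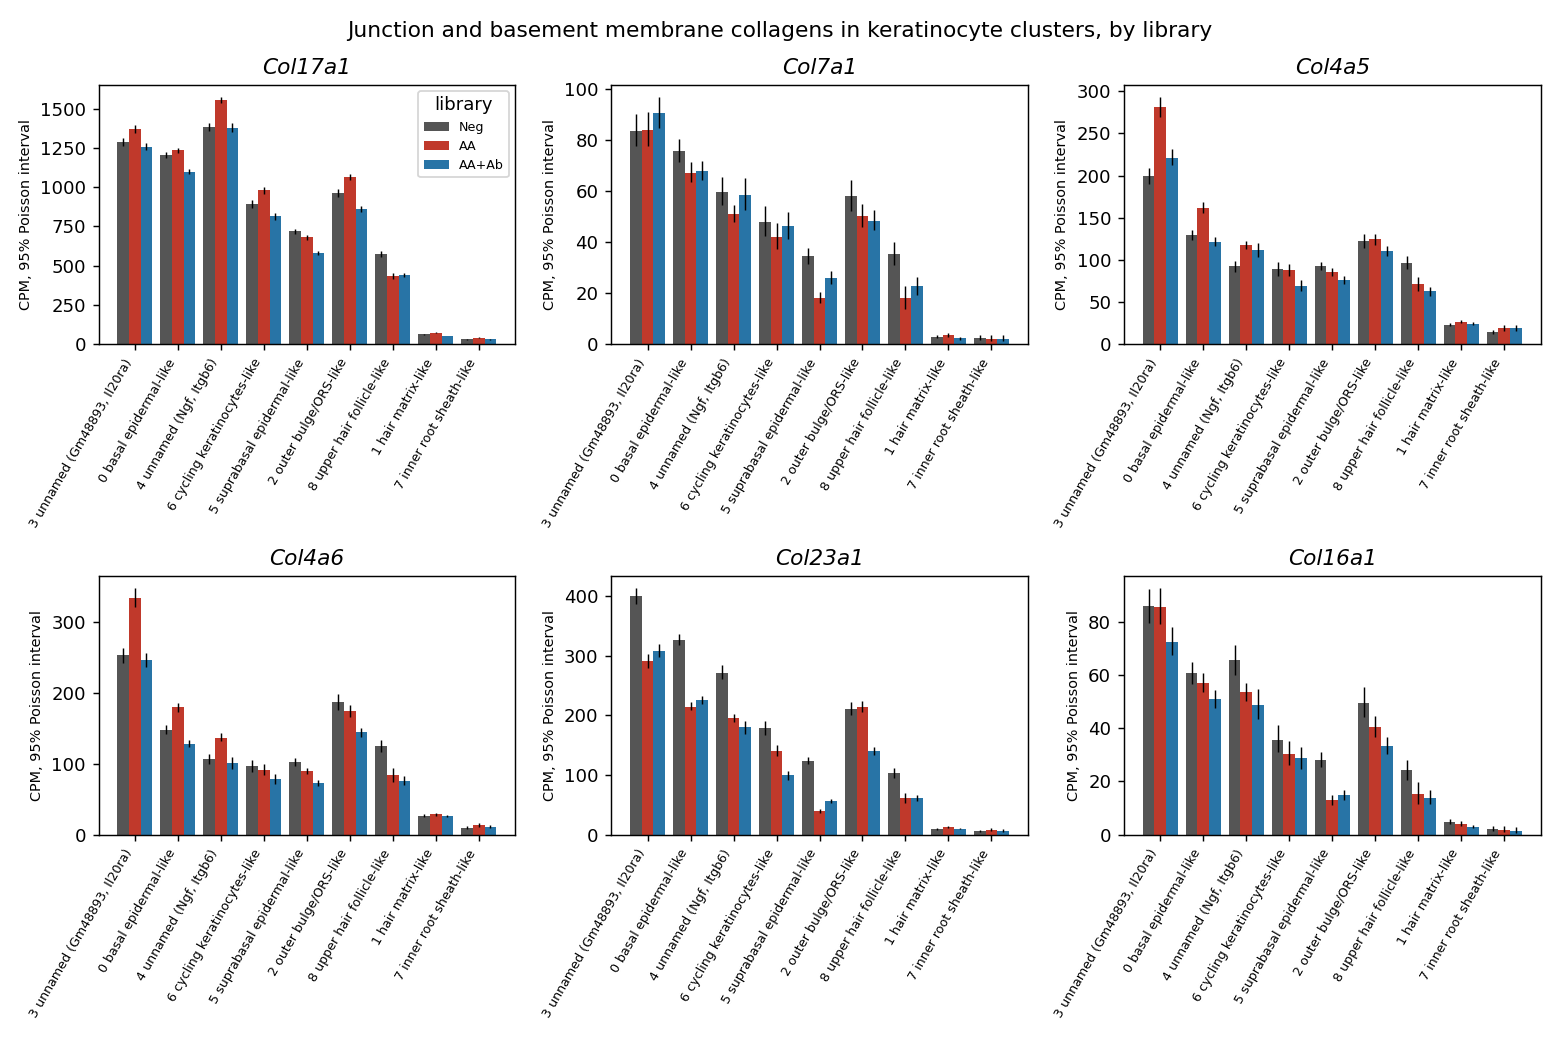
Levels of 6 junction and basement membrane collagens in CPM in the 9 keratinocyte clusters with the most cells, where bars are libraries, lines are exact 95% Poisson intervals and each panel has its own axis from 0. Col23a1 is tallest in Neg in the basal (327) and suprabasal (124) clusters, and Col4a5 and Col4a6 are tallest in AA in clusters 3 and 0.

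The suprabasal cluster had the most members lower in AA of the 17 keratinocyte clusters. Of 17 members with 30 or more UMIs there, 9 were at least 1.5-fold lower in AA than in Neg and 1 was higher, beside 14.1% and 5.33% of all genes. The median ratio was 0.529, against 0.908 over all genes. The 9 were *Col4a1*, *Col4a2*, *Col5a2*, *Col6a1*, *Col7a1*, *Col8a1*, *Col16a1*, *Col19a1* and *Col23a1*, and the higher one was *Col4a4*. *Col19a1*, with 28, 12 and 9 UMIs there, reached 30 only through Neg, so its place among them follows in part from the filter. The AA+Ab library had 10 lower, *Col19a1* again among them, and 0 higher than Neg (11.7% and 2.68% of all genes), with a median of 0.596 beside 0.918. *Krt14*, whose RNA marks basal cells, was at 5126, 5421 and 4642 CPM in the suprabasal cluster, and the part of basal RNA in these differences was not tested. In the upper hair follicle-like cluster, 5 of 13 were lower and 1 higher in AA (8.93% and 7.44% of all genes), and 10 were lower and 0 higher in AA+Ab than in Neg (10.9% and 3.14% of all genes). In the basal cluster the counts were 2 lower and 3 higher of 17 in AA (7.35% and 3.84% of all genes). Unnamed cluster 10 had 8 lower and 5 higher of 24 (8.39% and 12.1% of all genes), with a median ratio of 1.01. Several of these members are near the level of immune cells, and the part of free RNA in the difference was not tested.

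The paired type IV chains *Col4a5* and *Col4a6*, made by the epidermis, followed each other over keratinocyte clusters. Over 17 clusters with libraries pooled, their log2(CPM + 1) levels had a Pearson r of 0.99 and a Spearman rho of 0.96. This is a description over clusters that share libraries. It was not compared with pairs of unrelated keratinocyte genes, so it is not shown to be particular to this pair. With libraries pooled, *Col4a5* and *Col4a6* were highest in unnamed cluster 15, at 377 and 442 CPM. *Col17a1* was also highest there, at 2209.9 CPM. The ratio of *Col4a5* to *Col4a6* UMIs ran from 0.716 to 1.98, with a median of 0.894. In unnamed cluster 3, *Col4a5* was at 199.5 CPM in Neg, 281 in AA and 221 in AA+Ab and *Col4a6* at 253 CPM in Neg, 334 in AA and 247 in AA+Ab. The AA over Neg ratios there were 1.41 (1.32 to 1.5) and 1.32 (1.25 to 1.40). In the basal cluster they were 1.26 (1.19 to 1.33) and 1.21 (1.15 to 1.28), and in the upper hair follicle-like cluster 0.735 (0.634 to 0.852) and 0.665 (0.581 to 0.760). AA was thus above Neg in clusters 3 and 0 and below it in cluster 8 for both genes. The median AA over Neg ratio within clusters was 1.02 for *Col4a5* and 1.08 for *Col4a6*.

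The ubiquitous type IV pair *Col4a1* and *Col4a2*, whose starts lie 21 bp apart on opposite strands, had a Pearson r of 0.95 and a Spearman rho of 0.88 over the same clusters. Both peaked in unnamed cluster 27, led by Tagln, *Acta2* and Ccser1, with *Col4a1* at 478, 477 and 601 CPM and *Col4a2* at 251, 250.1 and 361. This cluster had 39, 31 and 40 cells. The AA+Ab over Neg ratios there were 1.26 (1.09 to 1.45) and 1.44 (1.19 to 1.75), against a median over clusters of 0.762 and 0.760. *Col4a3* and *Col4a4* start 72 bp apart and had 40, 44 and 92 and 106, 140 and 144 UMIs in keratinocytes. Their levels in unnamed cluster 17, led by the hair keratin Krt35, were 1.71, 2.08 and 11 and 3.98, 10.9 and 16.5 CPM.

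Other keratinocyte members peaked in single clusters. *Col18a1*, the multiplexin that carries endostatin, was at 290.4, 288 and 260.0 CPM in cluster 27 and 268, 156 and 210.3 in unnamed cluster 10, led by Krt6a and Trabd2b. Its level over all keratinocytes was 40.3, 40.9 and 34.2 CPM. *Col12a1* was highest in unnamed cluster 21, led by Krt24 and *Tnc*, at 218, 239 and 179.6 CPM. *Col14a1* was at 146, 72.0 and 105 CPM in cluster 27, with an AA over Neg ratio of 0.494 (0.334 to 0.714). *Col8a1* was at 65.8, 38.9 and 51.6 CPM in the outer bulge and outer root sheath-like cluster. *Col5a2* was at 17.2, 30.2 and 17.1 CPM in the hair matrix-like cluster, with an AA over Neg ratio of 1.76 (1.56 to 1.99).

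*Col13a1*, a transmembrane collagen of cell contacts, had the largest AA+Ab over Neg ratio of the members read in keratinocytes. It had 32, 64 and 180 UMIs in keratinocytes and an AA+Ab over Neg ratio of 4.67 (3.19 to 7.04). The largest part came from unnamed cluster 11, led by Csta1 and Fabp4, at 4.91 CPM (2.68 to 8.23) in Neg, 10.9 (7.70 to 15.1) in AA and 27.1 (22.5 to 32.3) in AA+Ab. There AA+Ab lay above both other libraries without overlap of the intervals. In the dermal papilla-like cluster outside the gate it was at 112, 48.7 and 124 CPM, lowest in AA. That cluster outside the gate also held the endothelial gene *Pecam1* at 226, 105 and 384 CPM, and its part in the *Col13a1* level was not tested.

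Low members completed the transmembrane and FACIT groups. *Col25a1* had 271, 391 and 163 UMIs in keratinocytes, an AA+Ab over Neg ratio of 0.50 (0.409 to 0.609). *Col19a1* had 210, 145 and 81 UMIs, an AA+Ab over Neg ratio of 0.320 (0.245 to 0.416), and was at 40.1, 111 and 109 CPM in the satellite cells-like cluster. *Col20a1* had 292, 304 and 215 UMIs and *Col26a1* 44, 28 and 28. Of the fibrillar genes, *Col3a1* and *Col1a1* were near 1 CPM or below in keratinocytes, with *Col3a1* at 0.494, 1.05 and 0.347 CPM and *Col1a1* at 0.608, 1.17 and 0.465. Both were highest in the library with the most fibroblast collagen, and they are not read as keratinocyte expression.

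In counts, 37 members had 30 or more UMIs in keratinocyte clusters. Between AA and Neg, 5 were at least 1.5-fold higher and 2 lower, beside 6.13% and 9.69% of all genes, with a median ratio of 1.06 against 0.946. Of the 5 higher, *Col1a1*, *Col3a1*, *Col6a3* and *Col11a1* were fibroblast members, and *Col11a1* (11, 25 and 4 UMIs) reached 30 only through AA. Between AA+Ab and AA, 2 were higher and 12 lower (6.20% and 10.3% of all genes), with a median of 0.745 against 1.00. Between AA+Ab and Neg, 2 were higher (*Col4a3* and *Col13a1*) and 12 lower (3.65% and 9.82% of all genes), with a median of 0.766 against 0.956.

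**Figure D4:**
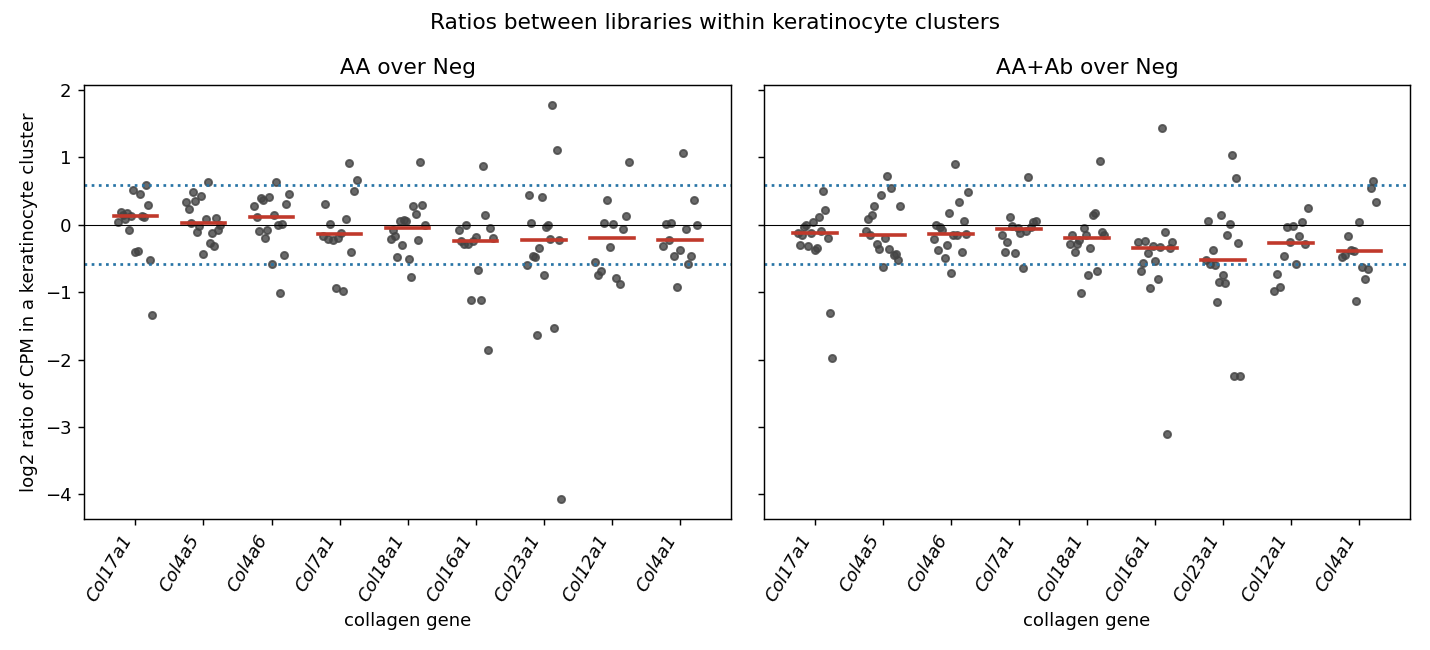
Log2 ratio of CPM between libraries within each keratinocyte cluster with 30 or more UMIs of the gene, for 9 collagens. Points are clusters spread sideways, red bars are medians over clusters, and dotted lines mark 1.5-fold. The medians of Col17a1 lie at a ratio of 1.09 (AA over Neg) and 0.911 (AA+Ab over Neg), and those of Col23a1 at 0.860 and 0.691. The lowest Col23a1 point in the left panel, a ratio of 0.0594, is cluster 27, with 28 UMIs in Neg and 1 in AA, and cluster 18 has 4 Neg cells.

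*Col27a1*, a fibrillar collagen known from cartilage, was concentrated in gamma-delta T cells, the dendritic lymphocytes of the mouse epidermis. In the gamma-delta T cells-like cluster it was at 404 CPM (370.1 to 440.1) in Neg, 445 (393 to 501) in AA and 471 (433 to 511) in AA+Ab, from 524, 269 and 566 UMIs. The 3 intervals overlapped. UMIs were found in 137 of 164 cells (83.5%) in Neg, 76 of 113 (67.3%) in AA and 171 of 214 (79.9%) in AA+Ab, with median depths of 5314, 4028 and 4492 UMIs per cell. The T cells-like cluster had 0, 0 and 1 *Col27a1* UMIs in 116, 390 and 237 cells. Elsewhere it was at 9.73, 24.3 and 7.15 CPM in the dermal papilla-like cluster outside the gate and 19.9, 2.05 and 3.38 in the dendritic cells and macrophages-like cluster. Over all cells *Col27a1* was at 5.65 CPM in Neg, 2.98 in AA and 4.73 in AA+Ab, lowest in AA, where gamma-delta T cells were also fewest. In sums over all cells, fewer cells of a type and less RNA per cell cannot be told apart, and within the cluster the AA over Neg ratio was 1.10 (0.947 to 1.28).

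**Figure D5:**
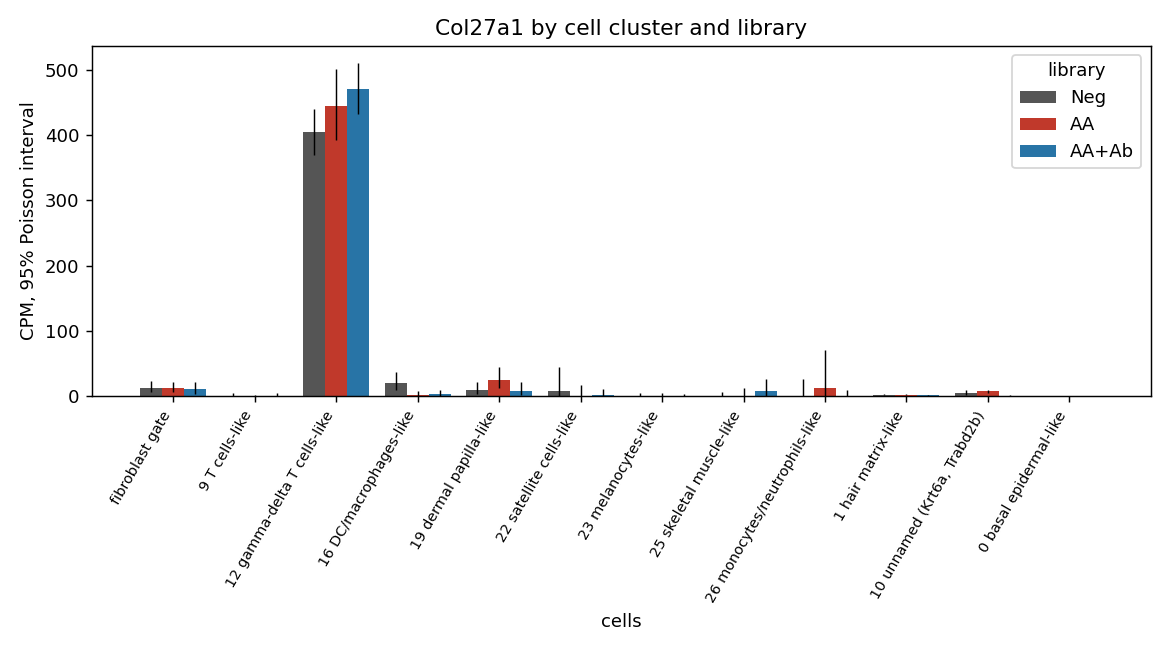
Level of Col27a1 in CPM by cell cluster and library, with exact 95% Poisson intervals, where the fibroblast gate is followed by other clusters without their gated cells. The gamma-delta T cells-like bars stand at 404, 445 and 471, and the T cells-like bars at 0, 0 and 0.767.

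Over all cells, the summed collagen level was 1194, 1476 and 1045 CPM. Of 39 members with 30 or more UMIs, 11 were at least 1.5-fold higher in AA than in Neg and 3 lower, beside 7.64% and 9.86% of all genes, and the median ratio was 1.16 against 0.958. *Col1a1* was at 10.9, 33.3 and 13.0 CPM and *Col1a2* at 16.8, 47.7 and 13.7, with AA over Neg ratios of 3.06 (2.88 to 3.26) and 2.85 (2.71 to 2.99). The AA library also had the largest share of gated fibroblasts, at 1.37%. Between AA+Ab and AA, 2 were higher and 14 lower (6.91% and 10.4% of all genes), and between AA+Ab and Neg, 2 were higher and 8 lower (4.86% and 9.35% of all genes).

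Genes that make, cut, bind or anchor collagen were read from 5 lists of 82 genes. Gate values of single genes are for all gated cells, of which 11.1%, 23.1% and 46.4% lay in the papilla cluster. The part of this mix in the ratios was not tested. For biosynthesis and crosslinking in the gate, 25 could be read, of which 6 were at least 1.5-fold higher and 2 lower in AA than in Neg (15.5% and 15.1% of all genes, for this and the next 4 lists), with a median ratio of 1.16 beside 1.03 for all genes. The largest ratio was that of *Plod3*, a lysyl hydroxylase, at 2.04 (1.06 to 4.18), and the smallest that of *Adamts14*, a procollagen N-proteinase with 20, 14 and 4 UMIs, at 0.489 (0.228 to 1.02). For breakdown, 1 of 10 was higher, *Ctsk*, a collagen-cutting cathepsin, at 241, 622 and 614 CPM and 2.58 (2.19 to 3.05). The 1 lower was *Timp1*, a metalloproteinase inhibitor with 14, 12 and 4 UMIs, at 0.598 (0.253 to 1.39). Both *Adamts14* and *Timp1* reached 30 UMIs only through Neg. Of 6 collagen receptors, 0 were higher and 1 was lower. Their extremes were *Itgb1*, an integrin chain, at 1.49 (1.24 to 1.80) and *Ddr1*, a collagen-binding kinase, at 0.480 (0.299 to 0.763). Of 11 fibril-associated proteoglycans and glycoproteins, 5 were higher and 0 lower, from *Fbn1* at 1.09 (0.985 to 1.20) to *Sparc* at 1095, 3068 and 2281 CPM and 2.80 (2.60 to 3.02). The 5 included *Dcn*, which the gate used, and *Tnc*, which reached 30 UMIs only through AA. Of 15 hemidesmosome and basement membrane partners, 1 was higher and 3 lower, and the smallest ratio was that of *Lamb3*, a laminin chain, at 0.433 (0.267 to 0.691). In the gate *Krt14* was also lower in AA than in Neg, at a ratio of 0.452 (0.425 to 0.480). The part of keratinocyte RNA in the *Lamb3* and *Ddr1* ratios was not tested. In the fibroblast cluster alone the biosynthesis list had 2 higher and 5 lower of 25 (11.1% and 11.6% of all genes). Between AA+Ab and Neg it had 0 higher and 14 lower (15.1% and 23.5% of all genes), a count limited by the 30 AA+Ab cells of that cluster.

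In keratinocytes the same lists are set beside 6.13% of all genes higher and 9.69% lower in AA than in Neg. Of 25 biosynthesis genes, 2 were higher and 2 lower, from *Loxl2*, a lysyl oxidase, at 0.575 (0.454 to 0.725) to *Tll1*, a procollagen C-proteinase, at 2.42 (2.02 to 2.91). Of 12 breakdown genes, 2 were higher and 0 lower, from *Mrc2*, a collagen uptake receptor, at 0.726 (0.624 to 0.844) to the collagenase *Mmp13* with 4, 42 and 12 UMIs, which reached 30 only through AA. Of 17 hemidesmosome and basement membrane partners, 2 were higher and 0 lower, from *Nid1* at 0.704 (0.439 to 1.12) to *Frem1* at 2.93 (2.02 to 4.35). Of 7 receptors, *Itgb1* was higher at 238, 382 and 244 CPM and *Itga11* lower at 4.04, 2.39 and 3.98. Of 11 fibril-associated genes, 1 was higher and 0 lower, from *Bgn* at 0.824 (0.764 to 0.889) to *Postn* at 1.52 (1.48 to 1.56).

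The 10 members under 100 UMIs over all cells were *Col2a1*, *Col6a4*, *Col6a5*, *Col9a1*, *Col9a2*, *Col9a3*, *Col10a1*, *Col22a1*, *Col24a1* and *Col28a1*, several of them cartilage collagens. Between 12 and 95 UMIs were found for each, too few to compare libraries. *Col9a3*, a chain of type IX collagen, had 42, 33 and 11 UMIs, and *Col24a1*, a fibrillar chain, had 28, 35 and 32, of which 0, 9 and 8 were in gated papilla cells. *Col8a2*, the partner chain of *Col8a1*, and *Col11a2* had 75, 126 and 82 and 39, 71 and 51 UMIs over all cells.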

How the data were processed

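Gene counts of 3 libraries of dissociated dorsal skin were analysed. The authors deposited whole-number counts of unique molecular identifiers (UMIs) per gene and cell barcode as sparse matrices, with lists of genes and barcodes. The submitters' processing notes name Cell Ranger 7.2.0 (mm10) and FastQC 0.11.7. Whether intron reads were counted is not given in the sources used here, and Cell Ranger's setting can change levels of long genes.

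Cells with mitochondrial (mt-) UMIs of at most 10% and 200 or more genes were kept. Totals per kept library were 119193310 to 139663314 UMIs. Counts were summed per library and set of cells, and expressed per 1000000 UMIs of the same cells (CPM). Levels have exact Poisson intervals and ratios exact conditional intervals at 95%. These cover counting error only, since each group is 1 library of pooled mice, and no test between groups was run. A member was called higher or lower at a ratio of 1.5 or more in either direction, if it had 30 or more UMIs over the 3 libraries in the same cells. This filter uses the sum, so a gene can pass it through 1 library.

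Cells were clustered without collagen genes (2000 variable genes, 30 components, 20 neighbours, Leiden resolution 0.8; scikit-learn 1.9.0, igraph 0.11.9, leidenalg 0.10.2). Gated fibroblasts were taken out of their clusters. A cluster was named "X-like" from marker lists if 3 or more markers were detected in 25% of its cells at 2 times the level of other cells. These thresholds were set after seeing the clusters. Doublets were scored by simulated doublets and kept in the main values. The code was tested on simulated data (Python 3.11.15, scipy 1.17.1).

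The members, lists and fibroblast gate were chosen with earlier results of these data known. Values are given for members with 100 or more UMIs over all cells, or 30 in fibroblasts, or 1 CPM in a keratinocyte class. Of each partner list the largest and smallest AA over Neg ratios are named, except for genes not reported here. Alternatives were another mt- limit, doublets removed, other denominators, other fibroblast gates, thinned cells, another cluster resolution, other count and fold limits, and, added after seeing the data, the fibroblast cluster alone.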

Additional observations from a re-analysis of the deposited data

Results flagged for a closer look

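Differences between libraries that ran in opposite directions in gated fibroblasts and in a keratinocyte cluster were found for 4 members. With 1 library per group, none of these differences was tested. *Col16a1* had an AA over Neg ratio of 1.69 in the gate, against 0.460 in the suprabasal cluster, 0.627 in the upper hair follicle-like cluster and 0.464 in unnamed cluster 10. Its AA+Ab over Neg ratio was 1.76 in the gate, where it turned to 0.756 after cells were thinned to equal UMIs, against 0.624 in the hair matrix-like, 0.523 in the suprabasal and 0.575 in the upper hair follicle-like cluster. *Col23a1* had an AA+Ab over Neg ratio of 3.44 in the gate, where papilla cells held most of it. The same ratio was 0.665 in the outer bulge and outer root sheath-like cluster, 0.661 in unnamed cluster 4, 0.451 in the suprabasal, 0.554 in the cycling, 0.593 in the upper hair follicle-like cluster and 0.210 in unnamed cluster 18. Its AA+Ab over AA ratio was 2.58 in the gate, against 0.653 in the outer bulge and outer root sheath-like cluster and 0.604 in cluster 18. *Col6a1* had an AA+Ab over AA ratio of 0.663 in the gate and 1.60 in unnamed cluster 4. *Col17a1* had an AA over Neg ratio of 0.663 in the gate, at its background level, and 1.5 in cluster 18. Cluster 18 had only 4 Neg cells, so its ratios to Neg rest on 33 *Col23a1* and 48 *Col17a1* UMIs.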

How the results depend on the processing

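No paired analysis was possible because each group is 1 library, and for the same reason no replicate could be left out. Of 1413 values recomputed, 1147 moved by less than their counting interval, 255 moved by more and 11 turned direction. The sum over the family in fibroblasts includes *Col1a1*, *Col1a2* and *Col3a1*, which define the gate. Under gates that use these genes, its ratios describe the selected cells and support no comparison. Summed over the family in fibroblasts, the AA over Neg ratio was 1.69 and became 1.79 with mt- UMIs at most 5%, 1.65 without doublets, 1.61 with another denominator, 1.51 with a gate of 4 in 5 genes, 3.12 with a gate of no collagen gene, 1.32 without gated cells of keratinocyte clusters, 1.27 after thinning to 2000 UMIs and 1.34 in the fibroblast cluster alone. The AA+Ab over AA ratio was 0.699 and became 0.777 (doublets), 0.729 (denominator), 0.756 (4 in 5 genes), 0.345 (no collagen gene), 0.868 (thinned) and 0.769 (cluster). The AA+Ab over Neg ratio was 1.18 and became 1.25 (mt-), 1.28 (doublets), 1.14 (4 in 5 genes), 1.08 (no collagen gene), 0.911 (keratinocyte-cluster cells out), 1.10 (thinned) and 1.03 (cluster), so its direction depended on 4 Neg cells. Over all cells the ratios of 1.24, 0.708 and 0.875 became 1.22, 0.701 and 0.854 with the mt- limit, 1.21 and 0.861 (AA over Neg, AA+Ab over Neg) without doublets, and 1.20 and 0.733 (AA over Neg, AA+Ab over AA) with the other denominator. In keratinocytes 1.17, 0.747 and 0.874 became 1.15, 0.740 and 0.849 (mt-), 1.14, 0.753 and 0.861 (doublets), and 1.14 and 0.774 (AA over Neg, AA+Ab over AA, denominator). The count past 1.5-fold in fibroblasts was 8 between AA and Neg, and 25 with the collagen-free gate, 4 in the cluster and 5 at 2-fold. Between AA+Ab and AA it was 15, and 27 (collagen-free gate), 7 (thinned), 23 (no UMI minimum) and 8 (2-fold). At 2-fold the counts over all cells were 4 (AA over Neg) and 4 (AA+Ab over Neg), and those in keratinocytes 1 and 8. Except for the cluster, no share of all genes is given beside the counts under changed settings. They show how the counts move and are not read as a result about the family. In fibroblasts 11 single ratios turned. For AA over Neg these were *Col12a1* at 0.699 in the cluster, *Col6a5* at 0.502 thinned, and *Col17a1* at 1.14 with the collagen-free gate and 1.02 thinned. For AA+Ab over AA they were *Col12a1* at 1.04 (4 in 5 genes), *Col7a1* at 0.703 (collagen-free gate) and *Col4a6* at 1.25 (thinned). For AA+Ab over Neg they were *Col16a1* at 0.756, *Col12a1* at 0.709 and *Col18a1* at 1.08 after thinning, and *Col12a1* at 0.961 with the collagen-free gate. The cause was not tested. The 54 to 143 gated fibroblasts limit all fibroblast values.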
